A study of Mus musculus with 8 samples.

Results

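The Dlk1-Dio3 imprinted miRNA cluster is a run of miRNA genes on mouse chromosome 12 between the genes Dlk1 and Dio3. Its members were chosen by a list of names, and the rule itself holds no measured value. The rule listed 48 miRNA names, of which 34 had at least 1 row in the count table and 14 matched none, and the 34 names gave 42 mature miRNAs of the 1196 miRNA rows. All 42 matched a RefSeq miRNA gene on chromosome 12 (GRCm38.p6, the mm10 build), and 40 had a RefSeq mature sequence. The members comprised 19 5p arms and 23 3p arms, and 8 hairpins were represented by both arms.

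Both cell lines of the series come from the mouse kidney, from the metanephric mesenchyme, the embryonic tissue from which nephrons arise. The labels describe mK3 cells as uninduced and mK4 cells as differentiated towards epithelium, both with the genotype wt, without treatment, and grown in DMEM with 10% fetal bovine serum. For each line there were 3 RNA libraries and 1 library of ATAC-seq, which marks accessible DNA with a transposase. Each line is a single line, so the state of induction cannot be told apart from any other difference between the lines, and since the labels name no separate cultures behind the RNA libraries, p-values reflect only the spread among those libraries, possibly a technical one.

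In the mouse, the cluster is imprinted: the long non-coding RNAs Meg3, Rian and Mirg, the miRNAs and a set of snoRNAs are made from the maternal chromosome, and the protein-coding genes Dlk1, Rtl1 and Dio3 mainly from the paternal one. The miRNAs are processed from the long non-coding transcripts, and those antisense to Rtl1 can cut the Rtl1 transcript, to which they are fully complementary. The cluster is known for strong expression in embryo, placenta, brain and muscle, and transcription factors of the MEF2 family are known to activate it in muscle cells and neurons.

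The members lay on the plus strand from Mir770 to Mir410, at chr12:109563692-109743795, 22.7 to 203 kb from the RefSeq start of Meg3. They were grouped by a list of hairpin numbers in genome order. The Meg3 side held 2, miR-770-3p, within Meg3, and miR-493-5p, which lies past the RefSeq end of Meg3 and within the RefSeq span of Rtl1. The group called antisense to Rtl1 held 6, from the hairpins Mir433, Mir127, Mir434 and Mir136, and Rian held 1, miR-370-3p. The other 33 lay in the 34.7 kb stretch from Mir379 to Mir410, chr12:109709060-109743795. The RefSeq gene Mirg held 10 of these 33 and the other 23 lay before its start. Whether a hairpin is exonic or intronic in its host was not analysed here.

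The 12 most abundant members are shown because the results turn on them, with the seed, bases 2 to 8, in capitals and the sequence 5′ to 3′ as RefSeq gives it. First come those that the test called higher in mK4.
miR-379-5p: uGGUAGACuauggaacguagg
miR-411-5p: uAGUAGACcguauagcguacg
miR-541-5p: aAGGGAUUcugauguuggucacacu
miR-381-3p: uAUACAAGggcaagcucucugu
miR-409-3p: gAAUGUUGcucggugaaccccu

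The member called lower in mK4 comes from the stretch antisense to Rtl1.
miR-127-3p: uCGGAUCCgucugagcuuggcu

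The other abundant members had too few counts to be tested.
miR-300-3p: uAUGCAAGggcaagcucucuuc
miR-134-5p: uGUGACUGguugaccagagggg
miR-494-3p: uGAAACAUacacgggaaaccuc
miR-369-5p: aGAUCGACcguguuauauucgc
miR-382-5p: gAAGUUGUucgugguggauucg
miR-323-3p: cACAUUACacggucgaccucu

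The hairpins of Mir379, the first of the stretch, of Mir541, with the largest log2 fold change among the tested members, and of Mir127, which went the other way, are shown with the arm that had the most counts in capitals. They lie at chr12:109709060-109709125, chr12:109742409-109742498 and chr12:109592846-109592915.
Mir379: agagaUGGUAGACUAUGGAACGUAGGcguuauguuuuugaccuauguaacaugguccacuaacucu
Mir541: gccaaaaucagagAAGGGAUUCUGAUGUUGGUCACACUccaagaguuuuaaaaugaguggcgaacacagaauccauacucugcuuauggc
Mir127: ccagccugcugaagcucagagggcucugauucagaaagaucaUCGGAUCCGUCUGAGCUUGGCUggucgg

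The seed is the part of a miRNA that pairs with most of its targets. The 40 member sequences held 40 different seeds, so no seed was shared within the cluster. Some members were nonetheless close in sequence. The mature sequences of miR-300-3p and miR-381-3p were identical at 19 of 22 positions, with 6 of 7 seed bases in common, so reads of one could have been counted for the other. The counts of these 2 members are therefore uncertain relative to each other. The neighbouring hairpins Mir379 and Mir411 gave 5p arms that were identical at 14 of 21 positions and at 6 of 7 seed bases.

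Cluster miRNAs were scarce in both lines, with more counts in every mK4 library than in any mK3 library. The 42 members together held 30, 35 and 60 counts in the 3 mK3 libraries and 149, 270 and 237 in the 3 mK4 libraries. The libraries held 3191483 to 6755311 miRNA counts, so the members made up 8.61 ± 3.78 CPM, counts scaled to the miRNA total of each library, in mK3 against 41.5 ± 4.60 CPM in mK4 (SD, n = 3 libraries per line), a ratio of 4.82. The exact two-sided permutation test gave p = 0.1, the smallest that 3 libraries against 3 allow. These are 0.000861% of all miRNA counts in mK3 against 0.00415% in mK4.

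Most members were near the limit of detection. A count was found for 25 members in mK3 against 38 in mK4, of which 21 had counts in both lines, 4 in mK3 only and 17 in mK4 only. Of all 1196 miRNA rows, 799, 799 and 794 had a count in the mK3 libraries against 765, 874 and 865 in the mK4 libraries. Part of the difference in members found may thus reflect how many miRNAs each library detected. Counts in all 3 libraries of a line were found for 6 members in mK3 against 13 in mK4. The highest value of any member in any library was 9.34 CPM, where, for single members, CPM are taken after TMM scaling, a correction for differences in composition. By mean CPM the most abundant member was ranked 403 of 1196 in mK3 (miR-127-3p) and 308 in mK4 (miR-541-5p). The tested miRNAs of the table had a median of 25.9 CPM in mK3 against 20.3 CPM in mK4. In bulk RNA, fewer cells that express the cluster and less RNA per cell cannot be told apart.

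**Figure D1:**
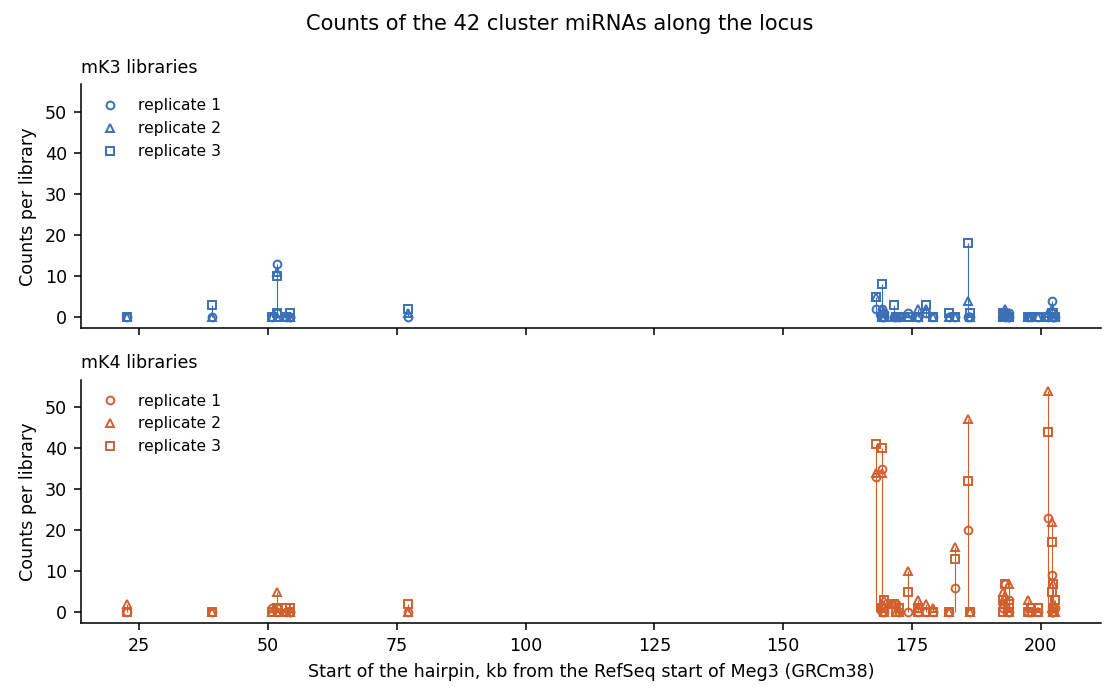
Counts of the 42 cluster miRNAs in each library (vertical axis), with 3 replicates per line as open symbols, against the distance of the hairpin from the RefSeq start of Meg3 in kb; the thin line runs to the highest library. In mK4 the high counts, up to 54, lie at 168 kb and beyond, in the stretch from Mir379 to Mir410, while in mK3 the highest are the 18 of miR-381-3p and the 13 of miR-127-3p.

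The difference was not the same along the cluster. The stretch from Mir379 to Mir410 held 16, 23 and 42 counts in the mK3 libraries against 147, 263 and 231 in the mK4 libraries. In CPM of the miRNA total this was 5.58 ± 3.07 in mK3 against 40.6 ± 4.80 in mK4 (SD, n = 3), a ratio of 7.28, and the lines did not overlap (exact permutation p = 0.1, two-sided, the smallest possible). The members antisense to Rtl1 went the other way, with 14, 11 and 13 counts in mK3 against 2, 5 and 4 in mK4. Here the lines did not overlap either, at 2.60 ± 0.442 CPM in mK3 against 0.669 ± 0.0622 in mK4 (SD, n = 3), a ratio of 0.257 (exact permutation p = 0.1). Of these counts, 34 of 38 in mK3 and 7 of 11 in mK4 belonged to miR-127-3p. On the Meg3 side and within Rian, 3 counts in mK3 against 2 in mK4 were found in each, which is too few for a comparison.

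The stretch from Mir379 to Mir410 supplied 53.3%, 65.7% and 70.0% of the members' counts in the mK3 libraries against 98.7%, 97.4% and 97.5% in the mK4 libraries. The means were 63.0 ± 8.66% and 97.8 ± 0.705% (SD, n = 3), without overlap (exact permutation p = 0.1, the smallest possible). As a share of the members' own counts, this value does not depend on the miRNA total of a library. Within the stretch, 29 of 33 members had a higher mean share of miRNA counts in mK4 and 4 a lower one, many of them on 1 to 3 counts. Of the 9 members outside it, 3 had a higher mean and 6 a lower one. Every listed miRNA row held at least 1 count. Of the 42 members, 17 had counts in mK4 only and 4 in mK3 only, so being listed fixed their direction. The same directions were not counted over all miRNA rows, so these numbers are not support for a change of the cluster.

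Single members were tested with edgeR's quasi-likelihood test over all miRNA rows, with Benjamini-Hochberg adjustment. A miRNA was tested if it had enough counts in at least 3 libraries, about 1.98 CPM. This left 461 miRNAs, of which 6 were members, and 36 members were not tested. The test called 5 members higher in mK4 and 1 lower at an adjusted p under 0.05. Of all 461 tested miRNAs, 32.5% were called higher and 35.1% lower, 67.7% in either direction. Each of the 6 reached 1.98 CPM in every library of 1 line only, 5 in mK4 and 1 in mK3, so passing the filter depended on being high in that line, and neither the number called nor the size of the changes among these 6 is support for a change of the cluster.

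**Figure D2:**
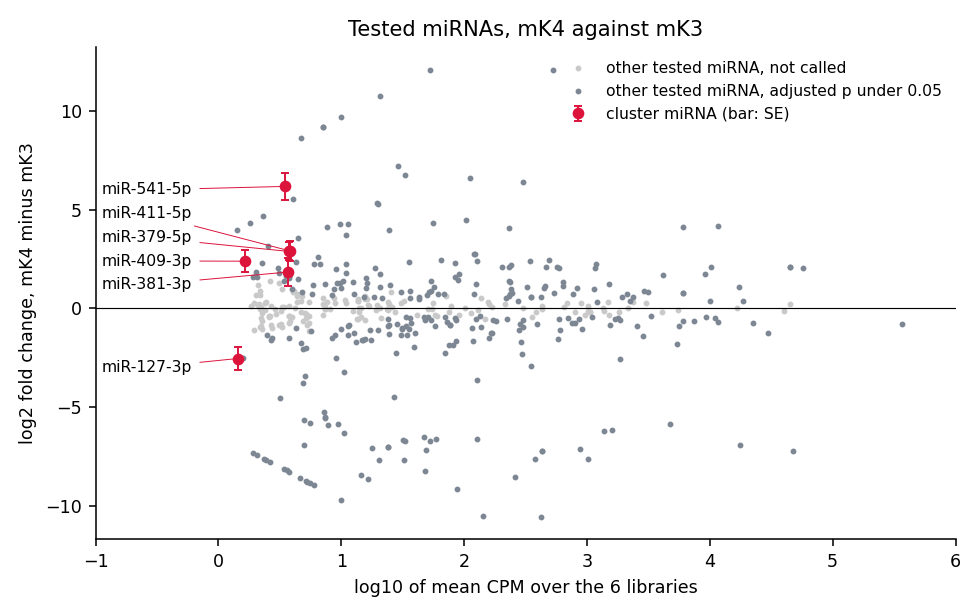
Log2 fold change of mK4 against mK3 (vertical axis) against the log10 of mean CPM over the 6 libraries for the 461 tested miRNAs, with the 6 tested cluster miRNAs in red and their SE as bars. The cluster miRNAs sit at the low end of abundance, 5 above 0 and miR-127-3p below it at -2.54, among other miRNAs that were called in both directions.

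The first pair of hairpins in the stretch, Mir379 and Mir411, gave similar counts of their 5p arms. The 5p arm miR-379-5p had 2, 5 and 5 counts in the mK3 libraries against 33, 34 and 41 in the mK4 libraries. All mK4 libraries lay above all mK3 libraries, and the mean rose from 0.864 ± 0.351 to 6.70 ± 1.92 CPM (SD, n = 3), a log2 fold change of 2.88 (SE 0.46; edgeR adjusted p = 4.955e-05). Its neighbour miR-411-5p had 2, 2 and 8 counts in mK3 against 35, 34 and 40 in mK4. Here too the lines did not overlap, and the mean rose from 0.867 ± 0.739 to 6.83 ± 2.24 CPM, a log2 fold change of 2.90 (SE 0.51; edgeR adjusted p = 0.000135). Its fold rests on mK3 replicate 3, the library with 8 counts: without it the log2 fold change was 3.85, while that of miR-379-5p was 3.06. The other arm of Mir411, miR-411-3p, had no count in mK3 against 0, 2 and 1 in mK4, and the 3p arm of Mir379 had no row.

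Near the distal end of the stretch, within Mirg, miR-541-5p showed the greatest contrast among the tested members. It had 0, 1 and 0 counts in the mK3 libraries against 23, 54 and 44 in the mK4 libraries. It was thus at or next to 0 in every mK3 library and the most abundant member in mK4, at 0.0705 ± 0.122 and 6.95 ± 0.967 CPM (SD, n = 3; edgeR adjusted p = 9.09e-07). With a single count in mK3 the size of the fold is poorly known: the pooled ratio was 97.5 with an exact 95% interval of 17.2 to 3880 for counting error only. The fitted log2 fold change of 6.18 (SE 0.67) depends on the prior count of the fit and was 8.19 without mK3 replicate 2, which held that count.

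Also within Mirg, miR-409-3p had 4, 2 and 1 counts in mK3 against 9, 22 and 17 in mK4. The lines did not overlap, and the mean rose from 0.518 ± 0.361 to 2.75 ± 0.456 CPM (SD, n = 3), a log2 fold change of 2.39 (SE 0.56; edgeR adjusted p = 0.00148). Without mK3 replicate 1 it was 3.04. The 5p arm of the same hairpin had 1, 0 and 0 counts in mK3 against 0, 1 and 5 in mK4, a pooled ratio of 4.84 with an exact 95% interval of 0.587 to 222.

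The mK3 libraries disagreed most on miR-381-3p, with 0, 4 and 18 counts, against 20, 47 and 32 in mK4. The mK3 library with 18 counts came close to the lowest mK4 library, at 3.87 against 4.87 CPM. The mean was 1.57 ± 2.04 CPM in mK3 against 5.73 ± 1.11 CPM in mK4 (SD, n = 3), a log2 fold change of 1.84 (SE 0.69; edgeR adjusted p = 0.0339). This call was lost without mK3 replicate 1 (adjusted p = 0.0565 by edgeR), without mK3 replicate 2 (0.139), without mK4 replicate 2 (0.106) and without mK4 replicate 3 (0.0911). Without mK3 replicate 3 the log2 fold change was 3.65, and over all 14 alternatives the adjusted p ranged from 0.00113 to 0.139.

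Its near-copy miR-300-3p was listed at 0 in all 3 mK3 libraries and had 6, 16 and 13 counts in mK4, 1.99 ± 0.388 CPM (SD, n = 3). The pooled mK4 value was 9.41 times a floor of 3 counts over the 3 mK3 libraries, with no allowance for error in the mK4 counts. It was not tested because 1 mK4 library fell below the filter. Where mK3 replicate 3 had 18 counts of miR-381-3p, it had none of miR-300-3p.

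The only member called lower in mK4 was miR-127-3p, which is antisense to Rtl1 and can cut its transcript. It had 13, 11 and 10 counts in the mK3 libraries against 1, 5 and 1 in the mK4 libraries. All mK3 libraries lay above all mK4 libraries, and the mean fell from 2.49 ± 0.438 to 0.387 ± 0.313 CPM (SD, n = 3), a log2 fold change of -2.54 (SE 0.59; edgeR adjusted p = 0.00148), which is 5.80-fold lower. The call and the direction held under the 14 alternatives in which it was tested, and the log2 fold change without 1 library ranged from -3.46, without mK4 replicate 2, to -2.10. With at least 1 CPM in all 6 libraries miR-127-3p was not tested. It had passed the main filter only through its mK3 counts, so the kept call is not support for a change of the cluster. Its other arm, miR-127-5p, had 1, 0 and 1 counts in mK3 against 0, 0 and 1 in mK4. The other members of this group, from Mir433, Mir434 and Mir136, had 0 or 1 count in each library.

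**Figure D3:**
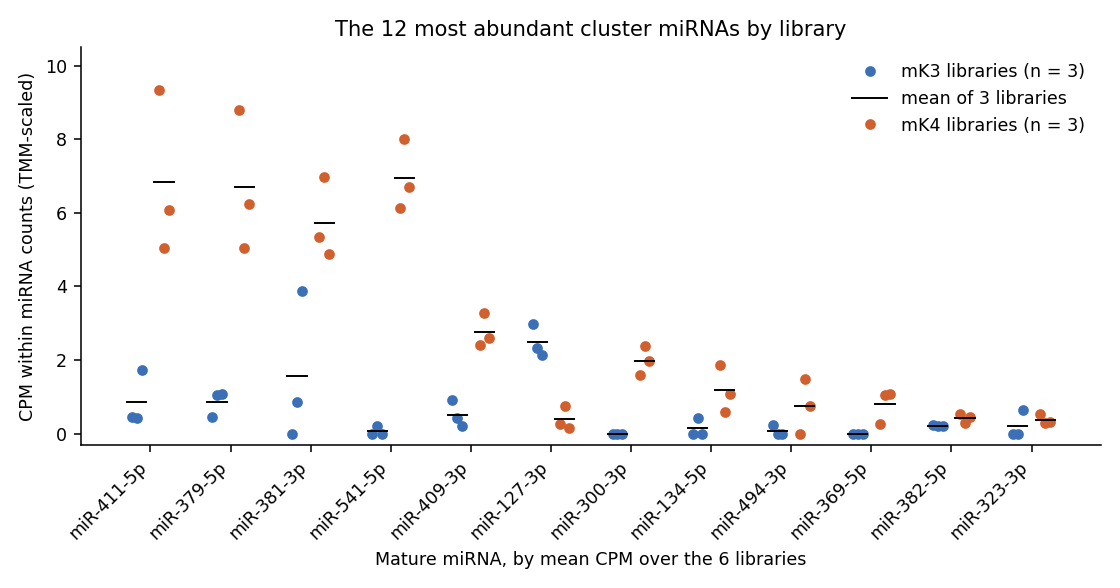
CPM within miRNA counts (vertical axis) of the 12 most abundant cluster miRNAs in each of the 3 mK3 and 3 mK4 libraries, with the mean as a line. All mK4 libraries lie above all mK3 libraries for miR-411-5p, miR-379-5p, miR-541-5p, miR-409-3p, miR-381-3p, miR-300-3p, miR-134-5p, miR-369-5p and miR-382-5p. They lie below for miR-127-3p, and the lines overlap for miR-494-3p and miR-323-3p. For miR-381-3p 1 mK3 library, at 3.87, comes close to the lowest mK4 library. Lines without overlap were not counted over all miRNAs, of which 67.7% of the 461 tested were called in either direction.

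The remaining abundant members were untested, and their counts give wide intervals. For miR-134-5p, a miRNA known from the dendrites of neurons, 0, 2 and 0 counts were found in mK3 against 7, 4 and 7 in mK4, a pooled ratio of 7.26 with an exact 95% interval of 1.74 to 64.5. The lowest mK4 library lay above the highest mK3 library. For miR-494-3p the counts were 1, 0 and 0 in mK3 against 0, 10 and 5 in mK4, a pooled ratio of 12.1 (1.86 to 509), and 1 mK4 library had none. For miR-369-5p no count was found in mK3 against 1, 7 and 7 in mK4. The pooled mK4 value was 4.03 times the same floor of 3 counts, again with no allowance for error in the mK4 counts. The 3p arm of this hairpin had 1, 0 and 1 counts in mK3 against 0, 2 and 0 in mK4, with no difference detectable at this depth.

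For the last of the 12 abundant members the intervals of the pooled ratio included a ratio of 1. The 5p arm of Mir382 had 1 count in each mK3 library and 2, 2 and 3 in mK4, a pooled ratio of 1.88 with an exact 95% interval of 0.429 to 11.3. Every mK4 library lay above every mK3 library, at 0.297 to 0.534 against 0.211 to 0.229 CPM, on 1 to 3 counts each. The 3p arm of Mir382 had 1, 0 and 0 counts in mK3 against 1, 5 and 0 in mK4. For miR-323-3p the counts were 0, 0 and 3 in mK3 against 2, 2 and 2 in mK4, a pooled ratio of 1.61 (0.344 to 9.96). The lines overlapped for both miR-323-3p and miR-382-3p.

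Of the 36 untested members, 29 had at most 3 counts in every library and 7 had more, with a highest count of 16. Summed without the 6 tested members, they held 9, 10 and 18 counts in mK3 against 28, 74 and 62 in mK4. In CPM of the miRNA total this was 2.55 ± 1.16 and 9.88 ± 1.09 (SD, n = 3), a ratio of 3.87, without overlap between the lines. No member lay above 10 CPM in either line. A line without any count of a member allows up to 3 counts over its libraries, 0.218 CPM in mK3 against 0.176 CPM in mK4, for counting error only.

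Where both arms of a hairpin were counted, the major arm held from 58.8% (Mir382) to 97.6% (Mir411) of the counts. Over the 6 libraries Mir411 gave 121 counts of the 5p arm and 3 of the 3p arm, and Mir127 gave 3 of the 5p arm and 41 of the 3p arm. Mir409 gave 7 and 55, Mir369 15 and 4, Mir382 10 and 7, Mir485 10 and 4, Mir299a 3 and 7, and Mir136 1 and 2. The reads of Mir541 and Mir379 were all of the 5p arm, at 122 and 120 counts, and those of Mir381 and Mir300 all of the 3p arm, at 121 and 35. None of the 8 cluster hairpins with both arms had the depth set for a comparison of arm use between the lines.

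The host transcripts were counted apart from the mature miRNAs. Dlk1, Meg3, Rtl1, Dio3 and Dio3os were listed at 0 in all 6 libraries, and Begain, upstream of the imprinted genes, had 23 counts in 1 mK3 library and 0 in the other 5. A 0 over the 3 libraries of a line allows up to 0.00749 CPM of gene counts in mK3 against 0.00683 in mK4, for counting error only. The spread between libraries can be wider, as the counts of Begain show. Rian, which hosts snoRNAs and miR-370, had 0, 0 and 3 counts in the mK3 libraries against 40, 30 and 22 in the mK4 libraries. All mK4 libraries lay above all mK3 libraries, at 0.212 ± 0.0744 against 0.00805 ± 0.0139 CPM of gene counts (SD, n = 3; edgeR adjusted p = 0.0342, in a table where 20.8% of 20405 tested genes were called higher and 40.3% in either direction).

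The pooled ratio for Rian was 28.0 with an exact 95% interval of 9.28 to 138, and the fitted log2 fold change went from 4.62 to 7.93 without mK3 replicate 3, which held all 3 mK3 counts. The call was lost in 7 of 12 alternatives: with no filter, with the replicate number as a block, and without any 1 of mK3 replicates 1 and 2 and mK4 replicates 1, 2 and 3, with an edgeR adjusted p from 0.0118 to 0.106 over all of them. Mirg, which hosts the distal members of the stretch, had no count in mK3 against 5, 4 and 0 in mK4. The pooled mK4 value was 2.74 times a floor of 3 counts over the mK3 libraries, with no allowance for error in the mK4 counts. One mK4 library had none.

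RefSeq places 103 genes from Dlk1 to Dio3, of which 90 matched a row of the gene table. Of these, 83 were listed at 0 in all 6 libraries, among them all 61 miRNA precursor genes and all 13 matched snoRNA genes. A miRNA counted in the mature rows thus had no count as a precursor gene, so the precursor rows give no second reading of the members. Counts were found for 7 genes, and 3 were tested: Rian, the pseudogene Gm3379 and the non-coding Gm34719, of which neither of the last pair was called.

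The flanking genes outside the imprinted interval did not rise with the miRNAs. All 14 flanking genes on the list were tested, and 0 were called higher in mK4, 7 lower and 7 neither, with a median log2 fold change of -0.75 beside 0.02 over all genes, of which 19.5% were called lower. Yy1, a transcription factor, had 10099, 10089 and 9129 counts in mK3 against 4239, 4572 and 5225 in mK4. It fell from 73.3 ± 2.98 to 32.0 ± 2.51 CPM (SD, n = 3), a log2 fold change of -1.20 (edgeR adjusted p = 0.000173). Wars, a tRNA synthetase (log2 fold change -1.60), Slc25a47, a mitochondrial carrier (-1.62), Dync1h1, a dynein heavy chain (-1.26), Hsp90aa1, a chaperone (-1.76), and Ppp2r5c, a phosphatase subunit (-0.99), fell as well. Cinp was called lower at -0.45, but lost the call in 6 alternatives. Degs2 (-0.06), Evl (-0.13), Mok (0.45), Slc25a29 (0.28), Tecpr2 (-0.51), Wdr20 (-0.42) and Wdr25 (-1.12) were not called. DESeq2 called 10 lower, adding Tecpr2, Wdr20 and Wdr25, and edgeR also called Wdr25 lower with at least 1 CPM in all 6 libraries and without mK3 replicate 3.

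Of the 4 genes of the MEF2 family, 3 were called higher in mK4, 0 lower and 1 not, where 20.8% of all tested genes were called higher. The list was chosen with earlier results of these data known, so its comparison with all genes is not independent of them. Mef2c had 6, 0 and 11 counts in the mK3 libraries against 1595, 1810 and 1953 in the mK4 libraries. It rose from 0.0434 ± 0.0443 to 12.2 ± 0.713 CPM (SD, n = 3), a log2 fold change of 8.12 (SE 0.85; edgeR adjusted p = 0.000689), or 9.09 without mK3 replicate 3. Mef2d rose from 16.4 ± 1.46 to 31.7 ± 3.37 CPM, a log2 fold change of 0.95 (edgeR adjusted p = 0.0016). Mef2b, which rose from 0.521 ± 0.157 to 1.39 ± 0.327 CPM (edgeR adjusted p = 0.028), lost the call in 5 alternatives, at 0.0875 with the replicate block. Mef2a was the most abundant of the 4, with 155 ± 9.40 CPM in mK3 next to 150 ± 8.01 CPM in mK4, and was not called (edgeR adjusted p = 0.698). The part of these genes in the miRNA difference was not tested.

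**Figure D4:**
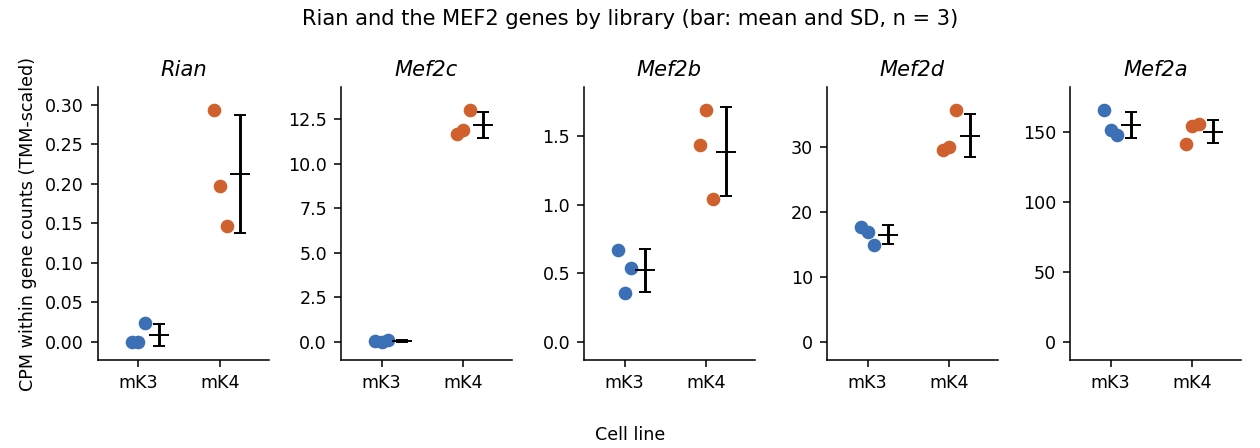
CPM within gene counts (vertical axes, a scale of its own for each gene) of Rian and the 4 MEF2 genes in the 3 libraries of each line, with the mean and SD as bars. Rian and Mef2c are close to 0 in mK3 and higher in all 3 mK4 libraries, while the lines overlap for Mef2a.

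Of 18 genes that keep or remove imprints, 16 were tested, with 4 called higher in mK4, 3 lower and 9 neither. These shares are near the 20.8% higher and 19.5% lower of all tested genes. Setdb1, a histone methyltransferase recruited to imprinted regions, rose from 70.2 ± 0.711 to 152 ± 6.82 CPM (SD, n = 3), a log2 fold change of 1.12 (edgeR adjusted p = 6.87e-05). Tet2, which oxidises methylated cytosine, rose from 45.7 ± 5.22 to 136.4 ± 24.2 CPM (edgeR adjusted p = 0.000608). Dnmt1, the maintenance DNA methyltransferase, fell from 405 ± 39.0 to 260 ± 15.6 CPM (edgeR adjusted p = 0.00203), and its partner Uhrf1 fell from 181 ± 12.1 to 135 ± 7.63 CPM (edgeR adjusted p = 0.00663). The third gene called lower, Aff3, had 7184, 5030 and 4316 counts in mK3 against 0, 0 and 235 in mK4. Its log2 fold change of -6.28 (SE 1.74; edgeR adjusted p = 0.0300) was the largest among the 16 tested genes. DNA methylation at the locus was not measured.

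The labelled cell types were checked against their markers. Of 9 markers of induced mesenchyme or epithelium, 5 were tested and all 5 (Cdh6, Cdh16, Pax8, Wnt4 and Lhx1) were called higher in mK4, beside 20.8% of all tested genes. Cdh6, a cadherin of the early nephron, was at 0 in all mK3 libraries and at 1667 ± 50.5 CPM in mK4 (SD, n = 3). The epithelial genes Cdh1 and Krt8 had at most 59 counts in any library, Krt18 was at 0 in all 6 and Epcam had 90 counts in 1 mK3 library only. Of 10 nephron progenitor markers, 6 were tested, with 3 higher (Pax2, Sall1 and Eya1) and 2 lower (Osr1 and Six2) in mK4, beside 20.8% and 19.5% of all tested genes. Pax2 was at 0 in mK3 and had 3806, 4155 and 5206 counts in mK4, and Sall1 was at 0 in mK3 and had 1415, 1537 and 1558. Eya1 rose from 10.1 ± 0.818 to 186 ± 31.1 CPM (SD, n = 3), while Six2 had 59, 15 and 61 counts in mK3 against 0 in mK4. Of the other tissues in which the cluster is known to be active, skeletal muscle and neurons had marker lists, and placenta had none. The 6 skeletal muscle markers summed to 0.0966 to 0.285 CPM in mK3 against 0 to 0.18 CPM in mK4, with Myog, Myf5 and Ckm at 0 in all libraries and Myod1 at 3 counts in 1. Acta1, with 41, 15 and 12 counts in mK3 against 0 in mK4, was called lower. Mylpf, with 0, 13 and 0 counts in mK3 against 0, 18 and 27 in mK4, was not called. The 6 neuronal markers summed to 24.6 to 32.4 CPM in mK3 against 37.8 to 45.3 in mK4, nearly all of it Tubb3. Of the 3 tested neuronal markers only Tubb3 was higher in mK4, while Stmn2, with 56, 75 and 28 counts in mK3 against 0 in mK4, and Elavl3, with 11, 33 and 11 against 0, were called lower. Snap25 was at 0 in all 6 libraries. The untested Rbfox3 had 255 counts in mK4 replicate 2 only, and the untested Syp had 48 in mK4 replicate 3 only. The 4 pluripotency markers summed to 0 in mK3 against 0.0513 to 0.34 CPM in mK4. Of 4 endothelial markers 3 were tested, with 1 higher and 1 lower in mK4, beside 20.8% and 19.5% of all tested genes. Cdh5 had 0 counts in mK3 against 999, 1182 and 1045 in mK4, Kdr had 258, 172 and 152 against 0, and Pecam1 was not called. Of 4 leukocyte markers 2 were tested and 0 were called in either direction. The part of these levels in the miRNA difference was not tested.

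Fewer ATAC-seq peaks lay over the locus in the mK4 library than in the mK3 library, although the mK4 library had more peaks in all. From 50 kb before Begain to 50 kb past Dio3, a window of 1348.9 kb, the authors' peak lists held 7 peaks in mK3 against 3 in mK4, and 1 peak of each line overlapped. These were 0.85% of the 824 chromosome 12 peaks of mK3 and 0.283% of the 1060 of mK4, with 22477 and 34710 peaks over the chromosomes in all. With 1 library per line there is no test, and fold enrichment and q values are those of the authors' peak caller.

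The shared peak lay just past the end of Mirg, 0.3 kb downstream in mK3 at chr12:109749760-109750127 and at chr12:109749851-109750055 in mK4. Its fold enrichment was 7.47 in mK3 against 3.996 in mK4, with -log10 q of 25.87 and 5.902. Inside Rian, mK3 had peaks at chr12:109626970-109627271 (fold enrichment 6.15) and chr12:109629011-109629230 (4.83), and mK4 had none. A further mK3 peak lay 34.3 kb before Dlk1, at chr12:109417695-109418203 (7.07). No peak lay at the start of Meg3: the nearest was 86.0 kb away in mK3 against 208.9 kb away in mK4. For Rian the distances were 23.0 and 145.9 kb, and for Mirg 14.8 and 14.9 kb. The line with more Rian counts and more counts from the Mir379 to Mir410 stretch thus had fewer peaks in the window. When only peaks with a -log10 q of at least 5 were kept, 6 remained in mK3 against 1 in mK4.

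**Figure D5:**
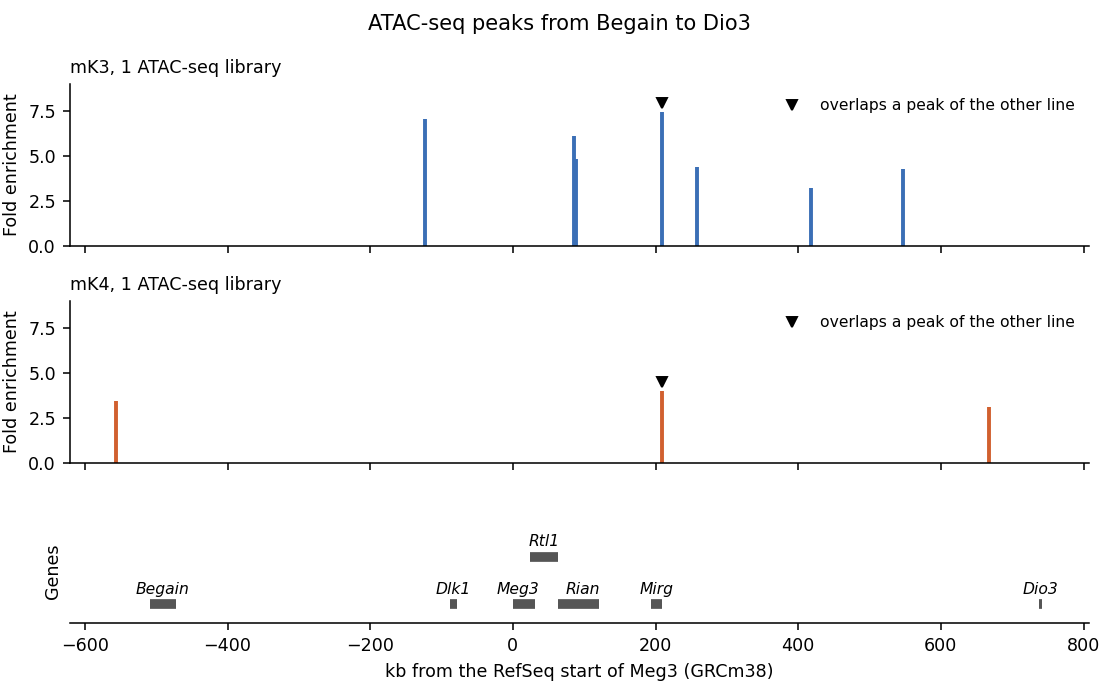
Fold enrichment of ATAC-seq peaks (vertical axes) in 1 library per line against the distance from the RefSeq start of Meg3 in kb, with the genes of the locus below and a triangle over the peak that overlaps one of the other line. The mK3 library shows 7 peaks and the mK4 library 3, and the shared peak just past Mirg reaches 7.47 in mK3 against 3.996 in mK4.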

How the data were processed

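RNA was counted in 6 libraries and ATAC-seq peaks were listed for 2. The RNA table was deposited as raw read counts, 1 row per feature. The submitters' processing notes list STAR 2.7.10a and HTSeq 2.0.2, MACS3, deepTools, bedtools, SAMtools and Bowtie2, and the genome mm10. Per the labels' protocols, RNA was depleted of ribosomal RNA and built into strand-specific libraries. Neither the way miRNA reads were obtained and counted nor the settings of the peak caller is given in the sources used here. The selected fragments are longer than a mature miRNA, so how the miRNA counts arose bears on every value. The deposited peak lists give each peak's fold enrichment (a ratio) and its −log10 p and q.

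miRNA rows and gene rows were each fitted with edgeR 4.0.16 in R 4.3.3 on all rows of the class (filterByExpr, TMM, robust quasi-likelihood test of mK4 against mK3), with Benjamini-Hochberg adjustment within the class and calls at 0.05. DESeq2 1.42.0, other scalings and filters, a replicate block and leaving out each library were alternatives. The fits were also run on simulated data, with changes set in rows drawn at random from all tested rows. That run was not matched to the low counts of the members, and its outcome is not given here. Libraries held 137559391 to 152952351 counts, of which 3191483 to 6755311 were miRNA counts, so 1 count was worth 0.149 to 0.267 CPM. Replicates of a line correlated at 0.9905 or more over miRNAs and lines at 0.7981 to 0.8056. Intervals are exact, at 95%, and they and floors cover counting error only, since reads are not independent molecules.

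Values are given for the 12 members with the highest mean CPM, every called member and the other arm of each, and for every gene of the locus and MEF2 lists. Of the imprint list up to 2 per direction were named by adjusted p, and Aff3 was added for the size of its change. The members and lists were chosen with earlier results of these data known. Circular RNA rows carry no gene names and were not analysed here. Sequences and coordinates are from RefSeq, GRCm38.p6.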

Additional observations from a re-analysis of the deposited data

How the results depend on the processing

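The counts of members called, 5 higher and 1 lower, were the same under DESeq2, other scalings, summed arms, TMM without the members and the replicate block, under which 5 and 1 were again called. Leaving out 1 library gave 4 to 5 higher and 1 to 1 lower. Without a filter 7 of 42 members were called higher and 1 lower, beside 176 higher and 203 lower of all 1196 miRNAs. With at least 1 CPM in all 6 libraries 0 members were tested, so 0 were called higher and 0 lower. Over all miRNAs the alternatives called 126 to 176 higher and 110 to 203 lower. The ratio of the cluster's share stayed between 4.233 and 6.461. Of the locus and flanking genes Rian alone was called higher, and 0 were without a filter, with at least 1 CPM in all libraries and with the replicate block; leaving out 1 library gave 0 to 1. The mK4 peaks fell to 1 at a -log10 q of at least 5. Of 29 single features, 19 kept direction and call throughout and 10 did not. Signs changed for genes that were never called: Degs2 was 0.0438 on log2 without TMM, 0.1292 with the block, 0.7141 without mK3 replicate 2 and 0.1555 without mK4 replicate 3 (-0.3874 to 0.7141 over libraries left out); Evl was 0.1592 without mK3 replicate 1 and 0.033 without mK4 replicate 1 (-0.343 to 0.1592); Mef2a was 0.0624 without TMM, 0.0095 without mK3 replicate 1 and 0.0008 without mK4 replicate 1 (-0.0768 to 0.0095). The cause was not tested. After removal of line means, same-numbered libraries correlated at 0.0592 to 0.2149 over miRNAs and -0.0269 to 0.0092 over genes. Differently numbered ones correlated at -0.2186 to 0.0983 and -0.0454 to 0.0421. With 3 libraries per line, whether the numbers pair the libraries cannot be told from these values. The arm comparison gave no value for the cluster, as 0 of its 8 hairpins passed. Depth limits most members: 29 had at most 3 counts in every library.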

Other observations

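Seeds of 2 members were found in other rows of the table. The member miR-410-3p, the last of the cluster, shares its seed AUAUAAC with miR-344d-3p, a miRNA from outside the cluster. The member had no count in mK3 against 1, 0 and 3 counts in mK4, while miR-344d-3p fell from 9.19 ± 1.89 to 0.627 ± 0.232 CPM (SD, n = 3), a log2 fold change of -3.79 (edgeR quasi-likelihood test, Benjamini-Hochberg adjusted p = 1.25e-06). The member miR-377-5p, with 1 count in all, shares its seed GAGGUUG with miR-672-5p, which had 0.147 ± 0.127 CPM in mK3 against 0.139 ± 0.134 CPM in mK4 and was not tested.

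Some non-coding genes between Mirg and Dio3 had counts in 1 library only: Gm34667 had 57 and Gm40576 had 75 in 1 mK4 library each, and 0 in the other 5. The pseudogene Gm3379 had 499, 454 and 505 counts in mK3 against 477, 516 and 546 in mK4.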
